A study of Mus musculus with 464 samples.

Results

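The Hoxb cluster genes are the Hox transcription factor genes of 1 block on mouse chromosome 11: Hoxb1 to Hoxb9 without gaps in numbering, and Hoxb13, which lies apart from them. The 10 genes were taken by name from a table of 21973 genes, and all 10 have a row. The cells came from R1, a mouse embryonic stem cell line, whose medium held 15% serum replacement and LIF, a cytokine that keeps stem cells undifferentiated, at 1000 U/ml. Hanging drops gave embryoid bodies over 48 hours, and retinoic acid, a vitamin A derivative, was then added for 4 days (0.5 mM, as labelled). All samples are single cells of that 1 treated group, with no untreated cells and no separate cultures named, so the cells count as 1 sample and no p-values are given. The series was made to cluster such cells, and the question addressed here is which Hoxb genes were on together in a cell and in which kinds of cells.

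Hox genes are arranged along a chromosome in the order in which they are used along the body. Genes at the 3′ end, such as Hoxb1, are switched on early and reach far forward into the hindbrain, whereas genes at the 5′ end come on later and mark more posterior levels of the spinal cord. Retinoic acid switches on the 3′ genes directly through its receptors, which bind next to Hoxb1 and elsewhere in the cluster. Hox proteins bind DNA together with the cofactors of the Pbx and Meis families.

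On the forward strand of chromosome 11 (RefSeq positions on GRCm38.p6, the same build as the mm10 named in the submitters' processing notes), Hoxb13 spans 96194316 to 96196610, and Hoxb9 starts at 96271330. Hoxb8, Hoxb7, Hoxb6, Hoxb5, Hoxb3, Hoxb4 and Hoxb2 follow by start position, and Hoxb1 ends the block at 96365746 to 96368254. The annotated span of Hoxb3, from 96307101 to 96347930, contains all of Hoxb4. Hoxb2 and Hoxb3 overlap the noncoding gene Hoxb3os, and Hoxb5 and Hoxb6 overlap Hoxb5os, and neither noncoding gene was analysed here. Whether reads were assigned by strand is not given in the sources used here, so the values of these genes may hold reads of an overlapping gene. RefSeq promoter sequence (250 bases before to 50 after a start site) was at hand for 3 members, Hoxb1, Hoxb4 and Hoxb8. The promoters of Hoxb1, the 3′ end of the block, and of Hoxb8, the most 5′ of the 3, are printed because the values of these genes and of factors known to bind such sites are given further on. The Hoxb8 window lies inside the annotated span of the gene (96279401 to 96285325), so its start site is not the first annotated base. Capitals mark motif matches on either strand.
Hoxb1, chr11:96365508-96365807, forward strand: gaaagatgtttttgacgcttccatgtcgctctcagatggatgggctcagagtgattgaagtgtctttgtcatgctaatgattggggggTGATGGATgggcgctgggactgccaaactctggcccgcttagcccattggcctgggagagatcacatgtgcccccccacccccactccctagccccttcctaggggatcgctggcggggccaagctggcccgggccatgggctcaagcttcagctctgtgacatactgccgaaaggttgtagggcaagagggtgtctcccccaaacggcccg
Hoxb8, chr11:96281655-96281954, forward strand: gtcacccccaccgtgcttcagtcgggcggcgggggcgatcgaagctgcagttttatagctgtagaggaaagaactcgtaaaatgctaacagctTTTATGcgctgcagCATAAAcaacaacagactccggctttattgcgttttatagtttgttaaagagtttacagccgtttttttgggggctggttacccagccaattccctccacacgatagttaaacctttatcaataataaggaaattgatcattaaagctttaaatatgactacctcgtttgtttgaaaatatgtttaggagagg
The capitals in Hoxb1 mark TGATGGAT, a form of the joint binding sequence of Hox and Pbx proteins that is known from the mouse Hoxb1 control region, beginning at −162 from the start site. It occurs in 0.767% of 32851 promoter windows of the same length. The capitals in Hoxb8 mark TTTATG, the core bound by Cdx factors, at −157 from the start site of this window on the same strand and at −143 on the opposite strand. Windows with at least 1 such match make up 11.9% of all. In Hoxb4, the only match was AGGTCA, the core of retinoic acid receptor sites, at −81 on the opposite strand, and 16.3% of windows have one. No overlapping matches were found, and TGATTNAT (3.22% of windows), another Hox and Pbx sequence, did not occur in these 3 windows. A match describes the letters only.

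The deposited values are TPM, which state a gene's part of all transcripts after allowing for gene length. A filter of at least 2000 genes above 0 and at most 20% mitochondrial share removed 6 columns. Columns come in 2 sets by their names, and 55 pairs of columns, always with a member in either set, were near copies. The pairs were averaged and counted as 1 cell each. The distinct cells had a median of 6779 genes above 0 (2059 to 10256). TPM keeps no sequencing depth, so gene number is the only stand-in for it. Detection means at least 1 TPM, and shares of cells have exact Clopper-Pearson 95% intervals, which cover counting error over cells only.

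Detection along the cluster did not follow the order of the genes. Hoxb1, the most 3′ member and a marker of the fourth hindbrain segment, was detected in 77 cells (19.1%, 15.4 to 23.3%). Its level ranged from 0 to 86.99 TPM, with a median of 14.4 TPM in the cells that had it. Its neighbour Hoxb2, a hindbrain gene, was detected in 86.8% of cells (83.2 to 89.99%) and had the highest level of all members, at 131.05 ± 129.5 TPM (mean and SD over cells). The step from Hoxb1 to Hoxb2 was the widest between neighbours within Hoxb1 to Hoxb9.

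Hoxb3 and Hoxb4, which mark the posterior hindbrain, were frequent but low. Hoxb3 was detected in 53.3% of cells (48.3 to 58.3%) at a mean of 5.01 ± 8.61 TPM, and Hoxb4 in 68.2% (63.4 to 72.8%) at 6.43 ± 8.07 TPM. Their highest values were 64.57 and 66.13 TPM, below the median of Hoxb2 (111.69 TPM).

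Hoxb5 and Hoxb6, which are used from the hindbrain border backward, were frequent and high. Hoxb5 was detected in 83.9% of cells (79.9 to 87.3%) with a median of 59.58 TPM and a maximum of 1005 TPM. Hoxb6 was detected in 85.4% (81.5 to 88.7%) with a median of 61.41 TPM and a maximum of 716 TPM. Their detected shares overlapped in their intervals with that of Hoxb2.

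The more 5′ genes Hoxb7, Hoxb8 and Hoxb9, known from spinal levels, were detected in 71.96% (67.3 to 76.3%), 69.2% (64.5 to 73.7%) and 68.5% (63.7 to 72.996%) of cells. Hoxb7 averaged 44.7 ± 52.3 TPM and Hoxb9 35.3 ± 41.6 TPM. Hoxb8 lay between them in position but was lower, at 10.01 ± 13.5 TPM. Hoxb13, known from the tail end of the embryo, was detected in 5 cells (1.24%, 0.404 to 2.87%), and its highest value was 26.88 TPM.

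**Figure D1:**
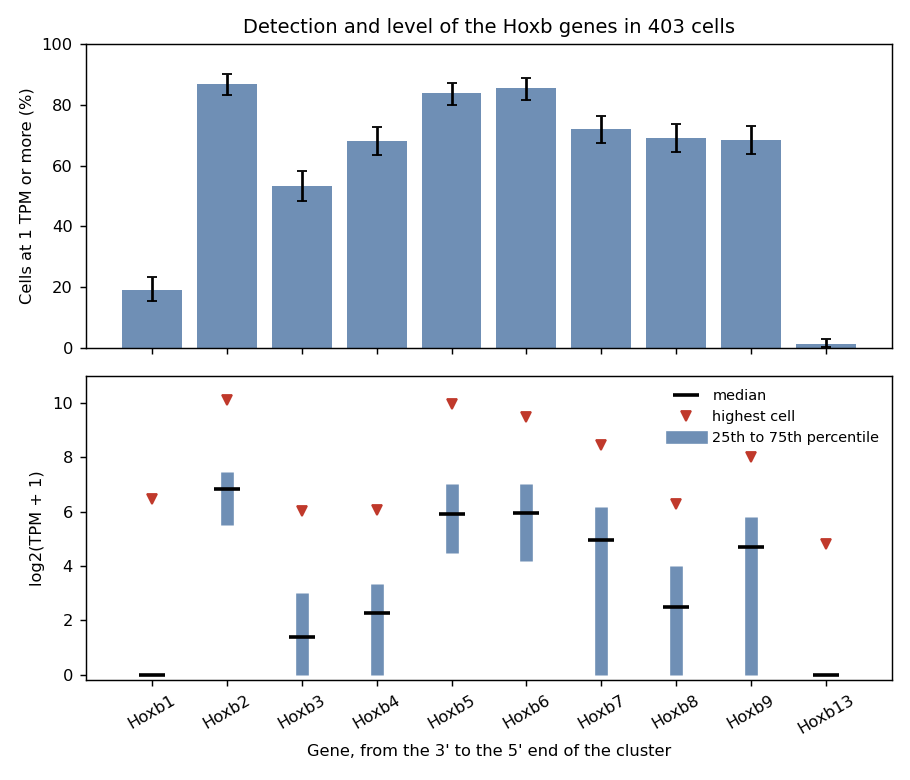
Detected share and level of the Hoxb genes from Hoxb1 to Hoxb13. The upper panel shows the percent of cells at 1 TPM or more, with exact 95% intervals. The lower panel shows the median, interquartile range and highest cell as log2(TPM + 1). Hoxb2, Hoxb5 and Hoxb6 are the highest members, Hoxb1, Hoxb3, Hoxb4 and Hoxb8 are low, and Hoxb13 is near 0.

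By mean level the order was Hoxb2, Hoxb5, Hoxb6, Hoxb7, Hoxb9, Hoxb8, Hoxb4, Hoxb3, Hoxb1 and Hoxb13. Within single cells, Hoxb2 was above Hoxb5 in 66.5% of the cells that had either (61.3 to 71.4%). Hoxb5 was above Hoxb6 in 52.2% of cells (46.9 to 57.5%), so the order of this pair could not be told from counting error. All other neighbours in the order had intervals above even odds, the lowest being Hoxb7 over Hoxb9 in 58.1% of cells (52.6 to 63.5%). Hoxb2 was the highest member in 47.4% of the cells with any member, Hoxb5 in 21.6% and Hoxb6 in 16.4%.

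The 55 pairs of near copies, called repeated cells here, gave differences within pairs. They were picked by likeness over many genes, and the labels name no repeats. Error from steps that both columns share would not show, so these differences may understate the measurement error. Hoxb1 was called the same way in all 55 pairs, with 12 cells detected in both columns and 43 in neither. Hoxb9 was called the same way in 98.2% of pairs and Hoxb3, the least repeatable member, in 78.2%. The SD of the log2(TPM + 1) difference within pairs ran from 0.37 for Hoxb9 to 1.17 for Hoxb8 among Hoxb1 to Hoxb9, against an SD over all cells of 2.65 for Hoxb9 and 1.88 for Hoxb8. Spread over all cells was larger than the differences within these picked pairs for Hoxb1 to Hoxb9.

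Cells were sorted by markers that are not Hox genes. Endoderm-state cells (54) had at least 5 of 10 endoderm markers, such as Gata4 and Sox17, with under 5 of 12 progenitor and under 8 of 12 neuron markers. Mixed-state cells (51) had at least 5 endoderm markers together with at least 5 progenitor or 8 neuron markers. Neuron-state cells (33.5% of all cells) had under 5 endoderm and at least 8 neuron markers, such as Tubb3 and Elavl3, and progenitor-state cells (38.2%) had under 5 endoderm, under 8 neuron and at least 5 progenitor markers, such as Pax6 and Sox2. Median gene numbers were 6153.5 in endoderm, 8104 in mixed, 7179 in neuron and 6665.5 in progenitor cells, and 9 cells fell in no state. Mesoderm markers were low in most cells. At most 1 of 12 was detected in over 10% of the cells of any state, and T, Mesp1, Msgn1 and Foxc2 in none. Their summed level had a median of 0 TPM in endoderm, mixed and progenitor cells and 5.51 TPM in neuron cells. The highest single cells had 37.85 TPM in endoderm, 160.87 TPM in mixed, 240.35 TPM in neuron and 397.81 TPM in progenitor cells. Of 8 neural crest markers, 3 were detected in over 10% of neuron cells and 1 in each other state. Doublets were not called, and the part of captured cell pairs in the mixed state was not tested.

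Endoderm cells had little of the cluster. Of the 10 members, 8 were lower in endoderm than in progenitor cells by a rule of size (mean TPM at least 2-fold apart, at least 10 cells with the gene in both states together, and share intervals without overlap), and 16.7% of all 12111 genes tested were lower by that rule. The 8 were Hoxb2 to Hoxb9. Hoxb1 was tested and not called, with 1 of 54 endoderm cells and 17 progenitor cells (11.04%), and Hoxb13 had too few cells to be tested. None of the 9 tested was higher, against 11.8% of all genes. The median log2 fold of the 9 tested members was −5.73, against −0.27 over all genes tested.

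Hoxb2 averaged 3.22 ± 13.4 TPM in endoderm cells (range 0 to 90.92, median 0) and 116.2 ± 63.7 TPM in progenitor cells (0 to 328.6, median 113.3), a fold of 0.0277. Hoxb2 was detected in 8 of 54 endoderm cells and 97.4% of progenitor cells, and the few highest endoderm cells reached into the progenitor range. Hoxb5 averaged 2.18 TPM in endoderm and 73.03 TPM in progenitor cells, and Hoxb6 averaged 2.31 TPM in endoderm and 78.9 TPM in progenitor cells. Hoxb9 averaged 0.329 TPM in endoderm and 41.1 TPM in progenitor cells, a fold of 0.00799. The size of these folds moved with the settings while the calls of Hoxb2 and Hoxb9 did not: that of Hoxb2 lay between 0.00800 (columns of set 1 alone) and 0.0555 (markers detected at 5 TPM), and that of Hoxb9 between 0.00334 (marker cuts of 4, 4 and 7) and 0.0405 (cuts of 6, 6 and 9). Hoxb8 was detected in 0 of 54 endoderm cells, with an exact 95% upper limit of 6.60%, and in 81.2% of progenitor cells.

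In endoderm cells 31 of 54 had no member at all. The other 23 mostly had 1, and a single cell had 4, with 15.65 TPM of Hoxb1, 90.92 TPM of Hoxb2, 74.95 TPM of Hoxb5 and 60.36 TPM of Hoxb6. The summed level of the 10 genes had a median of 1.11 TPM in endoderm, 220.4 TPM in mixed, 631.7 TPM in neuron and 363.3 TPM in progenitor cells. Gene number ranged from 4325 to 8427 in endoderm cells, within the range of progenitor cells (2060 to 9312).

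**Figure D2:**
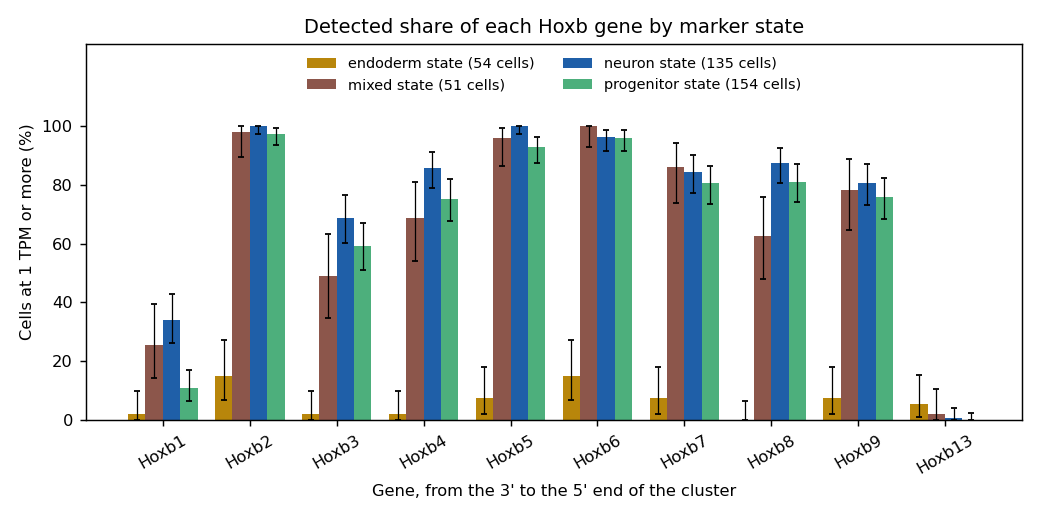
Share of cells with each Hoxb gene at 1 TPM or more (percent, exact 95% intervals) in endoderm, mixed, neuron and progenitor cells. Endoderm shares are at most 14.8% for every gene. Among the other states, Hoxb1 is in 34.1% of neuron and 11.04% of progenitor cells. Hoxb8 is in 62.7% of mixed cells (48.1 to 75.9%) and 87.4% of neuron cells (80.6 to 92.5%). Mixed cells are also below neuron cells at Hoxb3 and Hoxb4, with overlapping intervals.

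Mixed cells had all members in shares whose intervals overlapped those of progenitor cells. Of the 9 members tested, 0 were called against progenitor cells in either direction, while 11.5% of 12274 genes were higher and 0.179% lower. Hoxb2 to Hoxb9 had folds between 0.631 (Hoxb9, 25.97 TPM in mixed and 41.1 TPM in progenitor cells) and 0.805 (Hoxb5, 58.8 TPM in mixed and 73.03 TPM in progenitor cells). Hoxb1 averaged 4.30 TPM in mixed and 1.29 TPM in progenitor cells, with shares of 25.5% (14.3 to 39.6%) in mixed and 11.04% (6.56 to 17.1%) in progenitor cells whose intervals overlap. Against endoderm cells, a comparison added after the values were seen, all 9 tested members were higher in mixed cells, and so were 11.7% of 11414 genes, while 0.0876% were lower. Hoxb6 was in 51 of 51 mixed cells and 8 of 54 endoderm cells, while the median number of endoderm markers was 8 in both states. The summed level of these markers was lower in mixed cells, with a median of 518.1 TPM (49.4 to 1026.8). Endoderm cells had a median of 858.3 TPM (280.75 to 2130.8). Without the 5% of cells with the most genes, 39 mixed cells remained, and the count against progenitor cells was again 0. The comparisons with progenitor cells share those cells and are not independent.

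By the rule of size 2 members were higher in neuron than in progenitor cells, and the call of Hoxb5 depended on the settings. Hoxb1 averaged 7.81 ± 15.8 TPM in neuron cells (0 to 86.99) and 1.29 ± 4.48 TPM in progenitor cells (0 to 25.96), a fold of 6.06. It was detected in 46 neuron cells (34.1%, 26.1 to 42.7%) and 17 progenitor cells (11.04%, 6.56 to 17.1%). Hoxb5 averaged 190.7 ± 169.96 TPM in neuron cells (2.58 to 1005, median 130.9) and 73.03 ± 64.5 TPM in progenitor cells (0 to 430.55, median 56.73), a fold of 2.61, with overlapping ranges. Of all 12600 genes tested, 7.46% were higher and 1.03% lower in neuron cells by the same rule. The other 7 tested members were not called, with folds from 1.11 for Hoxb9 to 1.84 for Hoxb2, and the median log2 fold of the 9 was 0.68, against 0.04 over all genes tested. The count of 2 was 1 in columns of set 1 alone, where Hoxb5 was not called, and 0 in columns of set 2 alone, where Hoxb1 had a fold of 4.43 and Hoxb5 of 2.53. Hoxb5 also lost its call with detection at any value above 0, at both other sets of marker cuts, with markers detected at 5 TPM and in cells of middle gene number, where its folds were 2.33 to 3.06. All these folds pass 2-fold, so overlapping share intervals took the call of Hoxb5 away. The rule can hardly call genes found in nearly all cells. Hoxb2, in 100% of neuron and 97.4% of progenitor cells, was not called with rescaled cells, at a fold of 2.01.

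The level of several members went up with the number of neuron markers among cells with under 5 endoderm markers. With 0 to 3, 4 to 7, 8 to 11 and all 12 of the 12 markers, the smallest bin holding 48 cells, the median of Hoxb5 was 55.7, 56.9, 101.7 and 264.4 TPM. That of Hoxb2 was 89.9, 124.2, 159.5 and 186.2 TPM, and that of Hoxb6 50.6, 67.9, 107.8 and 150.8 TPM. Hoxb9 showed no such order, at 23.9, 36.5, 31.3 and 38.1 TPM. Hoxb8, its neighbour, stayed at 5.32 and 5.21 TPM in the lower bins and had 7.04 and 15.01 TPM in the upper ones. Hoxb1 was detected in 10.4%, 10.4%, 30.8% and 38.6% of the cells. Median gene number also moved, at 5779.5, 6784, 7142.5 and 7180, and its part in these levels was not tested.

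**Figure D3:**
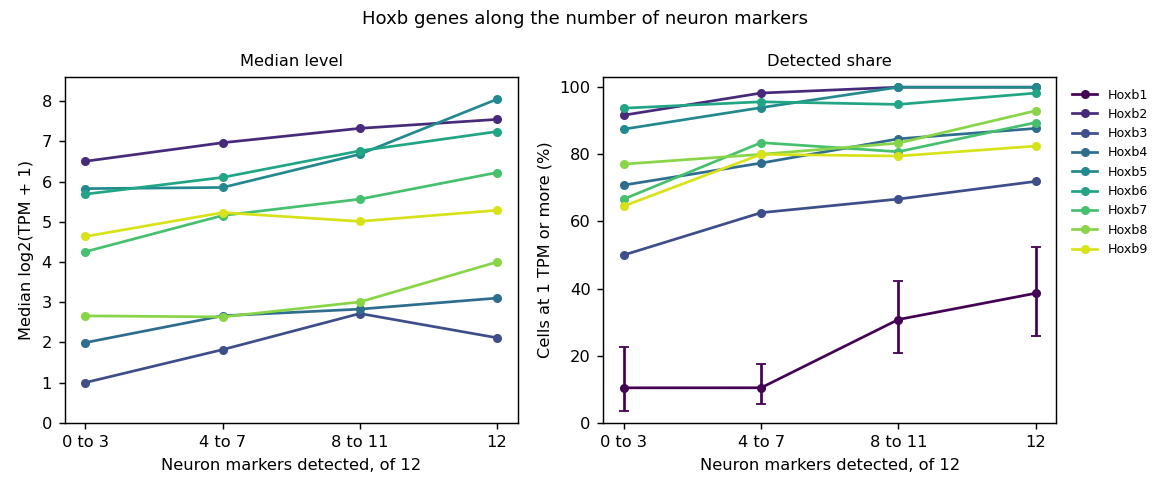
Levels of Hoxb genes (TPM) in cells with under 5 endoderm markers, by how many of 12 neuron markers each cell had, from 0 to 3 up to 12. Hoxb5 has a median of 55.7 TPM in the lowest bin and 264.4 TPM in the highest, while Hoxb9 stays between 23.9 and 38.1 TPM.

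Most cells outside the endoderm state held most of the cluster. The median cell had 7 of the 10 members (interquartile range 5 to 8), 80.6% of cells (76.4 to 84.4%) had at least 5, and 32 had none, of which 31 were endoderm cells. All of Hoxb2 to Hoxb9 were detected together in 0 of 54 endoderm, 19.6% of mixed, 45.2% of neuron and 29.2% of progenitor cells. Hoxb13 aside, Hoxb9 ends the order, so its detected share (68.5%) is by definition the share of cells where it was the most 5′ member. Hoxb8 was the most 5′ member detected in 14.6% of cells. Among cells with at least a pair of Hoxb1 to Hoxb9, the detected genes formed an unbroken run along the cluster in 39.5%. Of the 55 repeated cells, 12 had Hoxb3 in only 1 of their columns.

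**Figure D4:**
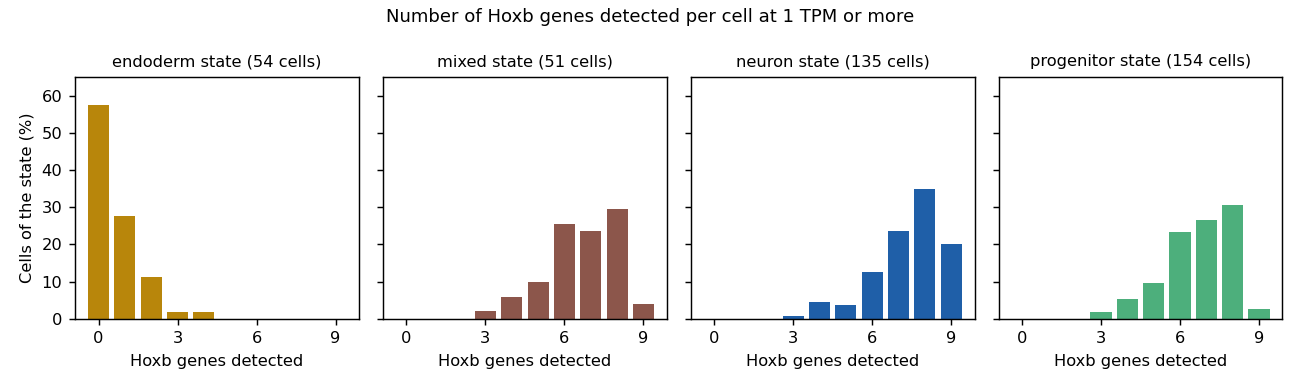
Number of Hoxb genes detected per cell (horizontal axis, 0 to 10) against the percent of cells (vertical axis) in each marker state. Endoderm cells peak at 0, whereas mixed, neuron and progenitor cells hold between 3 and 9 members with a median of 7 or 8.

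Neighbours were detected together more often than the product of their shares, and so were genes farther apart. Over all cells, all 8 neighbouring pairs of Hoxb1 to Hoxb9 had ratios of observed to expected co-detection of 1.12 to 1.23, and the 28 other pairs had 1.11 to 1.29. Every one of the 77 cells with Hoxb1 also had Hoxb2. Hoxb5 and Hoxb6 had a ratio of 1.13, with 12 cells that had Hoxb5 without Hoxb6 and 18 the reverse, and the rank correlation of their levels was 0.73, the highest of any pair. Among 11134 genes Hoxb6 ranked first in correlation with Hoxb5, and Hoxb5 first with Hoxb6. These correlations describe cells of 1 treated group with no separate cultures named. The cells differ in gene number and may share steps of library preparation. Within cells of low (2059 to 6144), middle (6169 to 7360) and high (7375 to 10256) gene number, the Hoxb5 and Hoxb6 correlation was 0.67, 0.76 and 0.78.

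Within progenitor cells the ratios of neighbours were nearer to 1, at 0.993 to 1.08, and their median rank correlation was 0.11. Hoxb5 and Hoxb6 still had 0.42 in progenitor cells, 0.56 in neuron cells and 0.74 in mixed cells. By column set it was 0.34 and 0.53 in progenitor cells and 0.60 and 0.52 in neuron cells.

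Hoxb9 ran the other way from Hoxb5 in progenitor cells, with a rank correlation of −0.34 (−0.22 and −0.46 in the column sets, and −0.40, −0.31 and −0.14 in cells of low, middle and high gene number). In the 75.97% of progenitor cells with Hoxb9 the median of Hoxb5 was 52.56 TPM, against 85.09 TPM in the 37 without it. Hoxb6 had medians of 52.47 TPM with Hoxb9 and 93.9 TPM without. Hoxb2 had medians of 113.5 TPM with Hoxb9 and 110.8 TPM without. Gene number moved with the split, at a median of 6881 with Hoxb9 and 5955 without, and its part was not tested. In neuron cells the correlation was −0.09. This split was chosen after the values were seen.

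Hoxb1 and Hoxb8, described because they had the lowest co-detection ratio of any pair of Hoxb1 to Hoxb9 in progenitor cells (0.652), were found together in 9 of these cells, where their shares give 13.8. Hoxb8 was detected in 9 of the 17 progenitor cells with Hoxb1 (52.9%) and in 84.7% of those without it. The pair was chosen for its value, so no test is given, and the ratio rests on few cells. In neuron cells Hoxb8 was detected in 89.1% of those with Hoxb1 and 86.5% of those without, and the pair of genes had a ratio of 1.02.

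**Figure D5:**
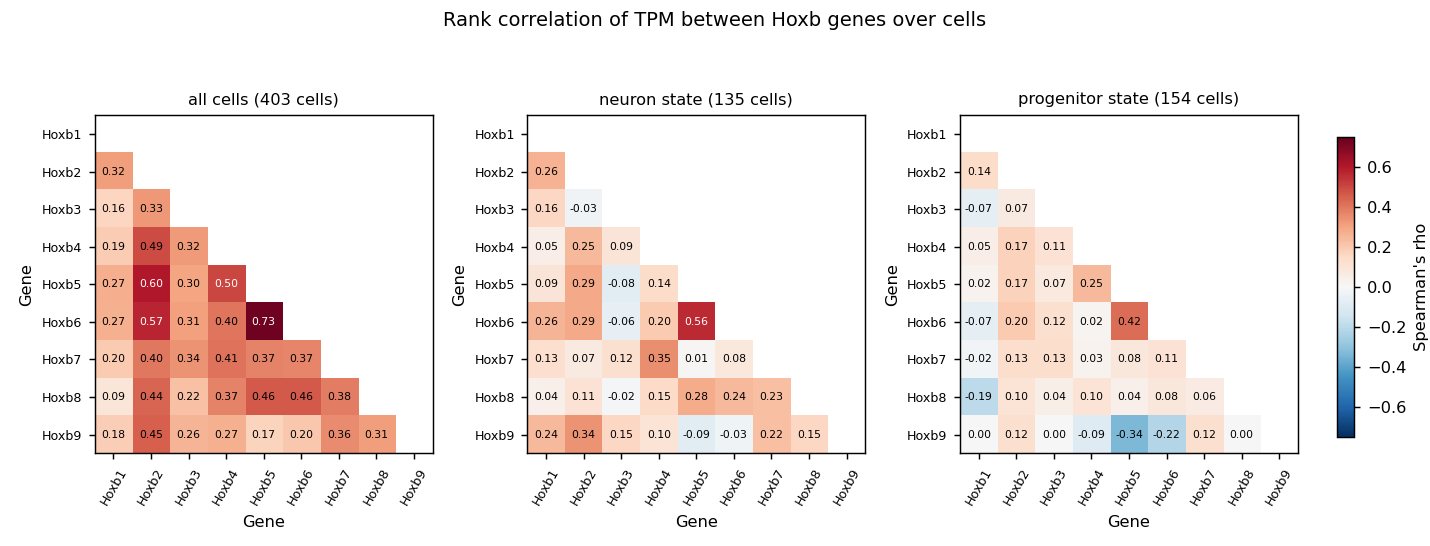
Spearman correlation of TPM between each pair of Hoxb genes over cells, by set of cells, with rows and columns in cluster order. Hoxb5 and Hoxb6 form the strongest pair, at 0.73 over all cells, and Hoxb5 with Hoxb9 is negative in progenitor cells, at −0.34.

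Subtype genes split few of the members. Egr2, a transcription factor of hindbrain segments, marked 25 progenitor cells, of which 6 had Hoxb1 (24%, 9.36 to 45.1%), against 11 of those without Egr2 (8.53%, 4.33 to 14.7%), with overlapping intervals. Of 18 neuron subtype genes, only Lhx5 separated Hoxb1 without overlap. Lhx5, a factor of several interneuron classes, marked 72 neuron cells, of which 35 had Hoxb1 (48.6%, 36.7 to 60.7%), against 11 of 63 without Lhx5 (17.5%, 9.05 to 29.1%). It also separated Hoxb4, in 68 of 72 neuron cells with Lhx5 and 48 of 63 without. Median gene numbers were 7293 with Lhx5 and 6830 without. Isl1 and Lhx4, factors of motor neurons and some interneurons, separated Hoxb9, which was in 18 of 30 neuron cells with Isl1 and 86.7% of those without, and in 15 of 27 with Lhx4 and 87.04% of those without. These 3 genes are named because of their values, and none of 6 progenitor subtype genes separated any member. The share of all genes that the same splits separate was not worked out. These separations are therefore not read as particular to the Hoxb genes.

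The 5 cells with Hoxb13 were of several kinds. The 3 endoderm cells had 5.77, 14.28 and 26.88 TPM and at most 1 other member. The neuron cell had 17.31 TPM with 8 other members, and the mixed cell 2.51 TPM with 6 others. Hoxb13 was listed at 0 in all progenitor cells. None of the 5 cells was among the repeated ones.

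Genes that work with or upstream of the cluster differed between endoderm and progenitor cells. Of 9 Hox cofactor genes, all tested, 0 were higher and 7 lower in endoderm than in progenitor cells, where 11.8% of all genes tested were higher and 16.7% lower. Among the 7 were Meis2 (1.72 TPM in endoderm, 40.8 TPM in progenitor cells) and Meis3 (14.99 TPM in endoderm, 40.01 TPM in progenitor cells). Of 13 retinoic acid pathway genes, 10 were tested, 1 was higher and 5 lower. Cyp26a1, which degrades retinoic acid and is itself induced by it, averaged 1422 TPM in endoderm and 90.01 TPM in progenitor cells. The binding protein gene Crabp1 averaged 4.67 TPM in endoderm and 969 TPM in progenitor cells, and the receptor gene Rarb 30.2 TPM in endoderm and 70.4 TPM in progenitor cells. Among upstream factors, Nr2f1 (0.562 TPM in endoderm, 65.8 TPM in progenitor cells), Nr2f2 and Gbx1 were lower. Of 10 chromatin regulators, all tested, 0 were higher and 4 lower, with the Polycomb enzyme gene Ezh2 at 20.2 TPM in endoderm and 124.3 TPM in progenitor cells.

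Mixed cells combined high Cyp26a1 with the cofactors. Against progenitor cells, Cyp26a1 was higher (731 TPM in mixed, 90.01 TPM in progenitor cells), while 0 of 9 cofactor genes were called. In neuron cells against progenitor cells, Pbx3 was the 1 cofactor called (67.1 TPM in neuron, 17.9 TPM in progenitor cells), and no pathway or chromatin gene was. The factors Cdx1, Cdx2 and Cdx4, whose core site occurs in the printed Hoxb8 promoter, were below 1 TPM in all endoderm, neuron and progenitor cells, and Cdx1 passed it in 1 mixed cell.

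The other Hox clusters gave a comparison by paralogue. Hoxb1 was detected in 19.1% of cells, against 4.47% (2.67 to 6.97%) for Hoxd1. Hoxb2 (86.8%) and Hoxa2 (84.1%), and Hoxb5 (83.9%) and Hoxa5 (90.8%), were frequent in both clusters. At the 5′ end, Hoxb9 was detected in 68.5% of cells, against 5.71% for Hoxa9 and 6.45% for Hoxc9, and Hoxd9 in none. Hoxb8 was detected in 69.2%, against 4.96% for Hoxc8 and 17.4% for Hoxd8, and Hoxb6 in 85.4%, against 27.05% for Hoxa6 and 51.6% for Hoxc6. At paralogue groups 1, 6, 8 and 9 the intervals of the named genes do not overlap that of the Hoxb gene. Against progenitor cells, endoderm cells had 6 of 8 tested Hoxa, 3 of 5 Hoxc and 2 of 3 Hoxd genes lower and none higher.

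The genes most like the cluster over all cells were led by a tubulin. By mean rank correlation with the 9 members detected in at least 10% of cells, among 11126 genes, the first were Tuba1a (0.47), a neuronal tubulin, Sox11 (0.46), a factor of young neurons, and Stmn1 (0.46), a microtubule regulator, followed by Dpysl3, Tagln3, Map1b, Tppp3 and Tshz1 (0.43). Hoxb1 had its own list, led by Dusp26 (0.42), Dner (0.41) and Lamp5 (0.39). Hoxb9 was most like Phyhipl (0.48), Hoxc6 (0.48) and Nrep (0.47). Of 13 genes listed around the cluster, 7 have a row and 5 were tested in endoderm against progenitor cells. Nfe2l1 and Ube2z were higher and Snx11 lower, so the direction seen in Hoxb2 to Hoxb9 did not extend to all neighbouring genes.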

How the data were processed

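The authors deposited 1 table of values per gene and cell with no stated unit. The values were taken to be TPM, since the submitters' processing notes name STAR, RSEM and the build mm10 (no version or annotation is given in the sources used here), the values are decimals, and cells sum to 54.2 to 95.1% of what TPM allows. Per the labels' protocols, capture was on a Fluidigm C1, with SMART-Seq V4 and Nextera XT chemistry, which add no molecular identifiers. The header line runs into the first gene's row and was split there. Columns carry no sample's label, which matters little because all samples form 1 group.

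The cell filter kept 458 of 464 columns. Column names form 2 sets, of 228 and 236 columns. Near copies were pairs with Pearson r of log2(TPM + 1) of at least 0.93 over genes detected in at least 10 cells. All 55 pairs spanned the sets (r 0.95 to 0.99, with 0.92 the highest for any other pair), and their mean was used as 1 cell, which left 403 cells: 54 endoderm, 51 mixed, 135 neuron, 154 progenitor and 9 in no state. The neuron marker bins held 48, 115, 78 and 57 cells, and 117 of the progenitor cells had Hoxb9. Detection was 1 TPM, and states, the size rule and intervals were as described. The rule was tested on simulated data. Doublets were not called, because callers need counts.

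All 10 members are named. From each list the text names at most 4 called genes of high level, and for likeness the 3 genes nearest each member and the 8 nearest on average. The members, lists and marker states were chosen with earlier results of these data known. Alternatives changed detection, repeats, column set, filters, scaling, marker cuts and fold. Python 3.11.15, numpy 2.4.6, pandas 2.3.3, scipy 1.17.1 and matplotlib 3.10.9 were used. The genome sequence at hand was of another build and was not used. Some genes of the lists are not reported here.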

Additional observations from a re-analysis of the deposited data

How the results depend on the processing

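Over the alternatives run, 68 of 78 summary values stayed within their bounds and 10 moved, and no call changed direction. Hoxb9, which was not called in neuron against progenitor cells, had a fold of 0.948 in columns of set 1 alone, against 1.11 over all cells. The number of members detected in at least 50% of cells was 8, against 5 both with detection at 5 TPM and with detection as a rank within the top 4000 genes. The share of cells with at least 5 members was 80.6%, against 72.5% at 5 TPM and 40.7% in the top 4000 genes. The number called in neuron against progenitor cells was 2, against 1 in columns of set 1 alone, 0 in set 2 alone, and 1 each with detection at any value above 0, marker cuts of 4, 4 and 7, cuts of 6, 6 and 9, and markers detected at 5 TPM. Hoxb5 lost its call in these 6 settings and in the cells of middle gene number, with folds of 2.33 to 3.06, and Hoxb1 lost its call in set 2 alone (4.43). These folds all pass 2-fold, so for Hoxb5 it was the share intervals that came to overlap. With the main settings Hoxb5 was in 100% of neuron and 92.9% of progenitor cells, so its shares had little room to differ. What moved the intervals was not tested. Hoxb3 and Hoxb4 lost their endoderm calls in the top 4000 genes, and Hoxb3 gained a neuron call (2.10-fold) in cells of middle gene number. Rescaling moved the median log2 fold of all genes by 0.13 in endoderm against progenitor cells. No paired analysis was possible because all samples form 1 group. Sequencing depth is unknown, so no limit by reads can be given.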

Other observations

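The 9 cells that met the marker numbers of no state had a median of 4455 genes above 0. Hoxb2, Hoxb4, Hoxb5 and Hoxb6 were each detected in 7 of them, Hoxb9 in 6, Hoxb3 in 5, Hoxb7 and Hoxb8 in 4 each, and Hoxb1 in 0. Hoxb2 ranged from 0 to 420.3 TPM in these cells, with a median of 148.5 TPM, and Hoxb6 from 0 to 444.6 TPM, with a median of 36.3 TPM.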
